A study of Mus musculus with 121 samples.

Results

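The B cell genes described here are Cd79a, Cd79b, Ms4a1, Cd22, Pax5, Blk, Cr2, Bank1 and Fcer2a. They were taken by symbol, through their Ensembl identifiers, from count tables that each hold 25759 genes, so the set is 9 of 25759. All 9 had counts in gonadal adipose tissue and in liver. Levels are given below in counts-per-million (CPM), with library totals scaled by the trimmed mean of M values (TMM).

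Bulk RNA was measured in gonadal fat and liver of C57BL/6 mice that were knockout (KO), heterozygous (HET) or wild type (WT) for the gene named PEP in the labels. Mice were fed a high-fat diet named HFD 45%, standard chow with 10% of calories from lipid, an Alios diet or a Control diet for 18 weeks from 8 weeks of age. Gonadal fat came from 9 KO, 11 HET and 8 WT mice on HFD, and from 5 KO, 8 HET and 4 WT mice on chow. Liver came from 9 KO, 11 HET and 8 WT mice on HFD, 5 KO, 8 HET and 5 WT on chow, 8 KO, 5 HET and 6 WT on Alios, and 1 KO, 4 HET and 5 WT on Control. The labels do not say how the allele was built or which cells lose the gene, and animals were not pooled as far as they say. Of the mice, 44 gave both tissues.

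The target was taken to be Pepd, the gene of the dipeptidase prolidase, from knowledge of the study. In fat, Pepd stood at 6.70 to 33.6 CPM in chow KO mice, against 58.5 to 101 CPM in chow WT mice, so KO fat retained reads of the gene. Pepd of 1 HFD mouse labelled HET was at the KO level in both tissues (21.7 CPM in fat). Totals ran from 4236655 to 6699887 counts in the 45 fat libraries, where 3 counts are worth 0.448 to 0.708 CPM, and from 42692 to 8854246 in the 75 liver libraries, where 3 counts are worth 0.940 CPM at the median. Such floors cover counting error only. In fat, 15 libraries, among them chow KO 1 and chow WT 2, held over 1000 CPM of summed epididymis and testis markers or of hepatocyte markers, and results below are also given without them where this changes a call.

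The B cell receptor is a membrane immunoglobulin that signals through a pair of chains, Cd79a and Cd79b. Kinases of the Src family, Blk among them, pass the signal on, the adaptor Bank1 takes part in it, Cr2 (the complement receptor CD21) lowers its threshold and Cd22, a lectin with inhibitory motifs, damps it. Ms4a1 encodes the surface protein CD20, Fcer2a the low-affinity IgE receptor CD23, and Pax5 the transcription factor that holds cells in the B lineage. Visceral fat of mice holds B cells, both among its stromal cells and in small lymphoid clusters. Cr2 is also made by follicular dendritic cells.

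The members lie on 8 chromosomes of GRCm38. Cd79a is on chromosome 7 from 24897381 to 24902197 on the plus strand, and Cd22 on chromosome 7 from 30865402 to 30880342 on the minus strand. These lie 10.01 Mb and 4.03 Mb from Pepd (chromosome 7, 34912379 to 35044708), and the other 7 members are on other chromosomes. RefSeq promoters of build GRCm38.p6 run from 250 bases before a transcription start to 50 after it. They matched 6 of the 9 members: Cd79a, Cd22, Pax5, Cr2, Bank1 and Fcer2a. These starts can differ from the gene ends given above, and the window of Cd22 lies inside the span of its gene. Blk, Cd79b and Ms4a1 were not matched.

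The promoters of a receptor chain, its inhibitor and the complement receptor are shown because these genes rose together in chow KO fat and hold different roles at the receptor. Capitals mark matches to CAGGTG (the E-box letters read by E proteins, or CACCTG on the other strand). They lie at chr7:24897247-24897546 (plus strand), chr7:30878979-30879278 (minus strand) and chr1:195176670-195176969 (minus strand).
Cd79a: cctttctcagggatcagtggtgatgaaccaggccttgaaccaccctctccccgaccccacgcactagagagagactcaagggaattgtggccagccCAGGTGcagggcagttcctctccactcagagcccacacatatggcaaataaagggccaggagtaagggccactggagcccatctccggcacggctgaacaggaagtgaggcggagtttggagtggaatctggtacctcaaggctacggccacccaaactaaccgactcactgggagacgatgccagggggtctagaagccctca
Cd22: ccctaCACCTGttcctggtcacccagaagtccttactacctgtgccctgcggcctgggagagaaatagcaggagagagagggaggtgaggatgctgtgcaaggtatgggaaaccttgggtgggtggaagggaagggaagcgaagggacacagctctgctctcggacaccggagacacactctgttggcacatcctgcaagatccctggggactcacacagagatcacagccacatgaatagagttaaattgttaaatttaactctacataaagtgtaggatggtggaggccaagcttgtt
Cr2: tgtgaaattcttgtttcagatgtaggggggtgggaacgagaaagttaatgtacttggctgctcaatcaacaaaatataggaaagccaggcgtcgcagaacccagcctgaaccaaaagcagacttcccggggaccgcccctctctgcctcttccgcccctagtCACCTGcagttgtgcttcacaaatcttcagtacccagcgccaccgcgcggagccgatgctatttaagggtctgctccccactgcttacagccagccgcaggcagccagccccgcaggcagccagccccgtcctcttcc
The letters CAGGTG, on either strand, were in a promoter of 5 of the 6 matched members (Cd79a, Cd22, Cr2, Bank1 and Fcer2a). Fcer2a has 3 promoters in the table, 1 of them with a match, so 5 of the members' 8 promoters held the letters, as did 20.2% of all 32851 promoters of that length. The octamer ATGCAAAT was in none of the 6 and in 1.74% of all. These matches describe the letters in the windows.

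The first question was whether loss of Pepd changed the B cell genes of fat in mice on chow. All 9 members rose in chow KO fat relative to chow WT fat, by log2 fold changes of 3.28 to 4.81, or 9.72-fold to 28.1-fold (quasi-likelihood test in edgeR, p adjusted by Benjamini-Hochberg over 14536 genes, 0.000552 to 0.00578). In this comparison 8.85% of all genes tested rose and 15% changed either way, with a median log2 fold change of -0.0296 over all of them against 4.11 over the members. The rise was seen in 4 of 5 KO mice. Because whole tissue was measured, more B cells and more RNA per B cell cannot be told apart.

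The receptor chains carried the rise in full. Cd79a stood at 75.6, 46.4, 5.22, 312.6 and 89.1 CPM in chow KO libraries 1 to 5, against 1.80, 5.61, 7.42 and 3.77 CPM in chow WT libraries 2 to 5. Libraries KO 1, 2, 4 and 5 were above every WT library and KO 3 was among them. The fitted log2 fold change was 4.50 ± 0.89 (SE), 22.6-fold, with an edgeR adjusted p of 0.000875. Cd79b gave 126, 68.9, 5.71, 479 and 136 CPM in KO and 5.04, 14.3, 12.9 and 5.24 CPM in WT. The order of the KO mice was that of Cd79a, and the log2 fold change was 4.11 ± 0.85 (edgeR adjusted p 0.00128).

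The surface proteins followed the same mice. Ms4a1 had 68.3, 24.9, 2.94, 148 and 56.5 CPM in chow KO libraries, against 1.08, 3.54, 4.77 and 2.46 CPM in chow WT libraries. Its log2 fold change was 4.33 ± 0.95 (edgeR adjusted p 0.00207), and again KO 3 lay within the WT range. Fcer2a had 65.6, 30.4, 1.14, 235 and 63.0 CPM in KO and 0.360, 2.66, 6.36 and 1.80 CPM in WT. At 4.81 ± 1.09 (edgeR adjusted p 0.00283) it had the highest fitted log2 fold change of the members and also the largest SE, and WT library 2 was under the value of 3 counts.

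The co-receptors of opposite sign rose alike. Cd22, the inhibitor, had 139, 70.3, 6.69, 431 and 150 CPM in chow KO libraries, against 2.52, 18.4, 14.3 and 6.56 CPM in chow WT libraries, a log2 fold change of 3.92 ± 0.76 (edgeR adjusted p 0.000778). Cr2, which lowers the threshold, had 16.2, 5.28, 1.31, 58.8 and 29.4 CPM in KO and 1.08, 0.590, 1.94 and 0.819 CPM in WT, a log2 fold change of 4.30 ± 0.87 (edgeR adjusted p 0.00103). For both genes 4 of 5 KO libraries were above every WT library. In Cr2 alone of the members, KO 5 stood well above KO 1.

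The signalling genes gave the smallest fitted rises. Blk, the kinase, had 42.2, 23.0, 5.39, 146 and 40.9 CPM in chow KO libraries, against 1.62, 6.20, 7.95 and 5.24 CPM in chow WT libraries, a log2 fold change of 3.28 ± 0.77 (edgeR adjusted p 0.00383). Bank1, the adaptor, had 47.3, 18.2, 4.08, 129 and 38.6 CPM in KO and 4.32, 5.16, 6.18 and 3.28 CPM in WT, a log2 fold change of 3.31 ± 0.62 (edgeR adjusted p 0.000552). Differences between members were not tested. Pax5, the lineage factor, had 62.6, 29.6, 1.63, 231 and 58.3 CPM in KO and 2.52, 8.71, 6.89 and 2.62 CPM in WT. Its KO 3 library lay below every WT library, and its log2 fold change was 3.87 ± 0.96 (edgeR adjusted p 0.00578).

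**Figure D1:**
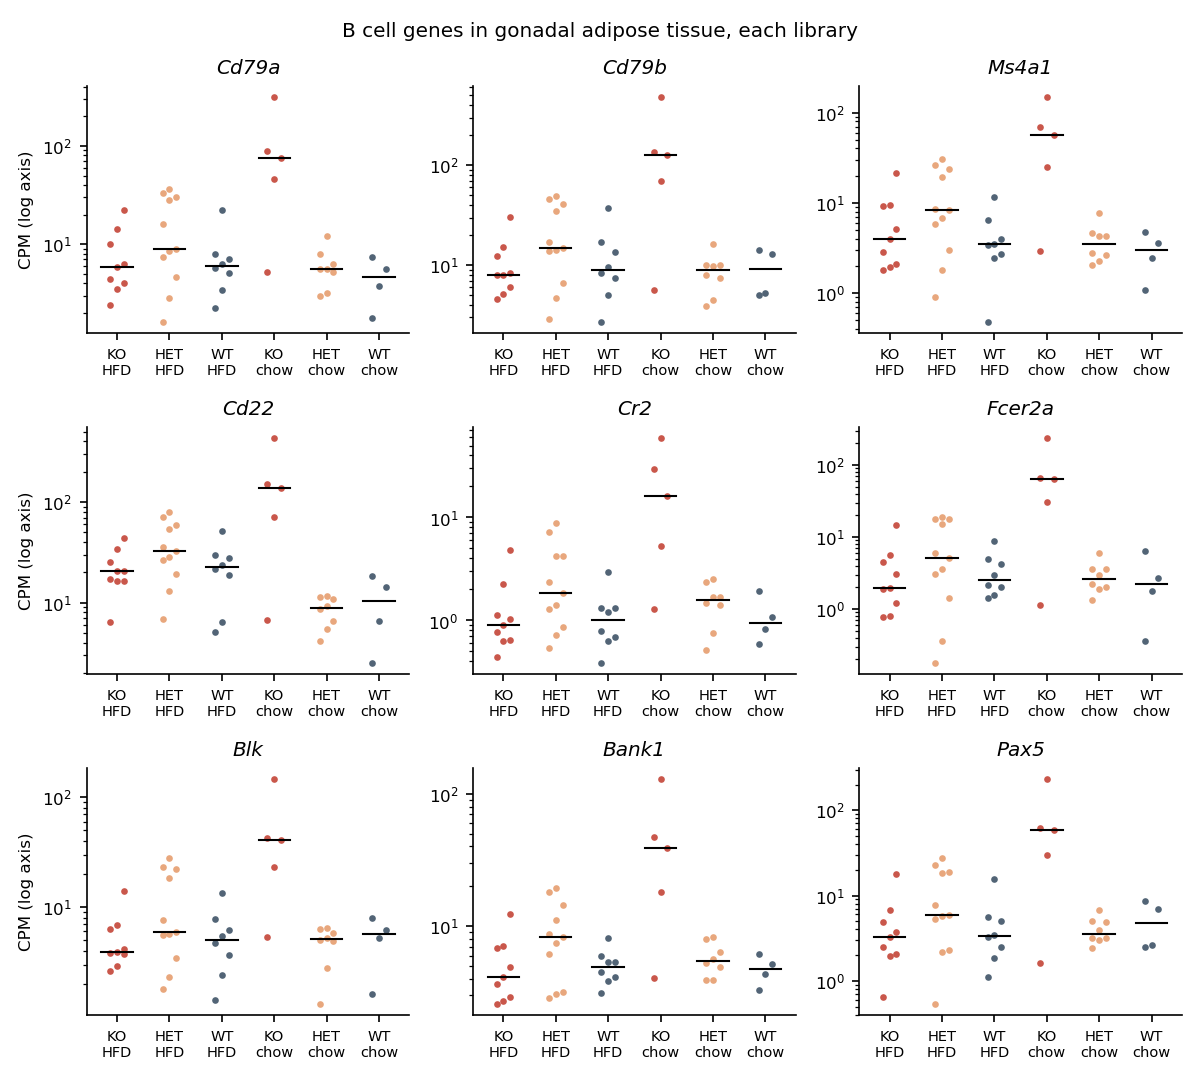
Level of each B cell gene (CPM, log axis) in every gonadal fat library, by genotype and diet; points are mice and black lines are group medians. In chow KO fat, 4 of 5 points lie above all chow WT points in every panel, and the remaining one, library 3, lies within or below the WT range.

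The result rests on an estimate of spread shared by all 6 fat groups. In a fit of the chow KO and chow WT libraries alone, none of the 12995 genes tested was called and the members had an adjusted p of 0.319, while their log2 fold changes were 3.29 to 4.82 and all 9 had an unadjusted p under 0.05. Without KO 4, the highest library, 8 members stayed called in edgeR and Pax5 had an adjusted p of 0.0528, with log2 fold changes of 2.40 to 3.83. Without the 15 libraries that held other tissue, all 9 were called, at 3.05 to 4.52.

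Chow KO fat was also set against chow HET fat. All 9 members rose, by log2 fold changes of 3.02 (Bank1) to 4.73 (Fcer2a) with edgeR adjusted p of 2.38e-06 to 5.38e-05, in a comparison in which 18% of all genes tested rose. Cd79a ran from 3.01 to 12.1 CPM in the 8 chow HET libraries with a median of 5.57, so that the same 4 KO libraries stood above every HET library. A fit of these groups alone called all 9. This comparison and that with WT share the KO mice.

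Chow HET fat did not separate from chow WT fat. None of the 9 members was called by edgeR or by DESeq2 and none had an unadjusted p under 0.05, with log2 fold changes of -0.36 ± 0.79 (Pax5) to 0.49 ± 0.73 (Cr2), and 0% of all genes tested was called. With SEs of 0.52 to 0.89 on the log2 scale, a 2-fold change could not have been told from none.

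Other genes of B cells were counted in lists, some of which share genes. Of 24 tested further B cell genes, 20 rose in chow KO fat over chow WT fat and none fell, with a median log2 fold change of 3.55. The 3 with the smallest adjusted p were the class II chaperone chains H2-Ob and H2-DMb2 and the inhibitory lectin Siglecg (3.85 ± 0.75, edgeR adjusted p 0.000781). The early B factor gene Ebf1, which fat precursor cells also express, gave -0.26 ± 0.23 (edgeR adjusted p 0.465).

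Immunoglobulin genes rose as a list, 10 of 12, with Ighd, Igha and Ighe leading, a median log2 fold change of 3.65. Reads of immunoglobulin genes can be shared between near-identical copies, so their values are uncertain. Ighd, the heavy chain of IgD on mature resting B cells, had 267, 105, 10.3, 796 and 167 CPM in chow KO libraries, against 3.96, 16.1, 22.3 and 10.3 CPM in chow WT libraries. Igha, the heavy chain of IgA, stood at 1139, 21.8, 48.3, 744 and 568.6 CPM in KO and at 28.4, 11.2, 24.4 and 5.90 CPM in WT, so KO 2, which was raised for every member, lay within its WT range. Ighm rose less, by 1.52 ± 0.53 (edgeR adjusted p 0.0479), and was at 1687 to 2794 CPM in WT libraries.

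Plasma cell genes rose in part. Of 10 tested, 4 passed the test, led by the factor Irf4 (1.33 ± 0.37, edgeR adjusted p 0.0122), with Txndc5 and Xbp1 next. The joining chain gene Jchain stood at 2.496 ± 0.90 with an adjusted p of 0.0537. None of 6 tested germinal centre genes and neither of the 2 tested precursor genes was called, of 8 in each list. Most precursor genes were thus not tested. Whether the tested genes of these 2 lists are particular to those B cell stages was not examined, so the counts do not speak for the stages. Rag1 and Rag2, which cut antigen receptor genes in precursors, had no count in any fat library. Of 8 tested genes linked to B-1 and innate B cells 3 rose: Il10 (2.59 ± 0.70, edgeR adjusted p 0.0108), Ahr and Spn, which other leukocytes also express.

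The pathway downstream of the receptor rose in chow KO fat for 14 of 20 tested genes and fell for none, with a median log2 fold change of 1.56. The inhibitory Fc receptor gene Fcgr2b gave 1.81 ± 0.33 (edgeR adjusted p 0.000433) and the phospholipase gene Plcg2 1.69 ± 0.34 (edgeR adjusted p 0.000911). The kinase gene Syk had 321.9, 154, 83.9, 501 and 429 CPM in KO and 37.8, 160, 78.1 and 80.8 CPM in WT. Macrophages express many of these genes too, and here KO 2 lay within the WT range. All 8 class II genes tested rose, with H2-Oa, H2-DMa and Ciita leading and a median of 1.61.

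Among signals for B cell survival and homing, 10 of 13 tested genes rose, with Il33, Tnfsf13b and Ltb leading. Il33, an alarmin of stromal cells, gave a log2 fold change of 3.00 ± 0.49 (edgeR adjusted p 0.000205). Tnfsf13b, the survival factor BAFF, had 13.2, 13.0, 7.67, 31.6 and 50.01 CPM in chow KO libraries, against 3.24, 8.71, 8.83 and 6.72 CPM in chow WT libraries. Cxcl13, the chemokine that draws B cells into follicles, had 135, 143, 3.43, 361.3 and 512 CPM in KO and 30.8, 3.98, 14.1 and 3.93 CPM in WT. The 4 KO libraries that were high for the members were also those high for Tnfsf13b and Cxcl13, though KO 5 led here and KO 4 led for the members.

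Summed neutrophil and T cell markers were above every chow WT library in KO 1, 2, 4 and 5, by little for the T cell sum of KO 2. Of the neutrophil markers 4 of 4 tested rose, and their summed level was 60.5, 60.6, 19.4, 458 and 776 CPM in chow KO libraries, against 13.9 to 41.6 CPM in chow WT libraries. Of the T cell markers 6 of 19 tested rose, led by Cd2, Tcf7 and Thy1, with a sum of 483, 174, 101, 478 and 367 CPM in KO and 64.8 to 170 CPM in WT. Of the macrophage markers 7 of 20 rose, natural killer cell genes in 2 of 8 and dendritic cell genes in 0 of 8. The macrophage sum was 3376 to 16065 CPM in KO, with a median of 5650 CPM that lay within the WT range of 1557 to 7413 CPM. The sum of the adipocyte markers was 14285, 53532, 48860, 8664 and 16496 CPM in KO libraries, against 27793 to 46461 CPM in WT libraries, so KO 1, 4 and 5 lay below every WT library and KO 2 and 3 above. The single adipocyte gene called was Lep, the gene of leptin, which fell by 1.87 on the log2 scale (edgeR adjusted p 0.0205).

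The epididymis and testis sum was 0.628 to 13328 CPM in chow KO libraries, with a median of 2.48 CPM. In chow WT libraries it was 1.31 to 18929 CPM. Of 9 stromal markers of lymph nodes and follicles in the table, Ccl19 and Ccl21a had no count in any fat library. The skeletal muscle gene Acta1 also had none, though the muscle markers summed to up to 997 CPM in HFD WT fat. A count of 0 throughout therefore need not mean that a gene was silent. Of the 5 tested, 3 rose, Fcgr2b, Cxcl13 and Glycam1, the last of these being at 0 in every WT library and at 0.165 to 3.77 CPM in KO. Spleen and erythroid markers were not called in any of 4 tested. The part of these other cells in the members' rise was not tested.

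**Figure D2:**
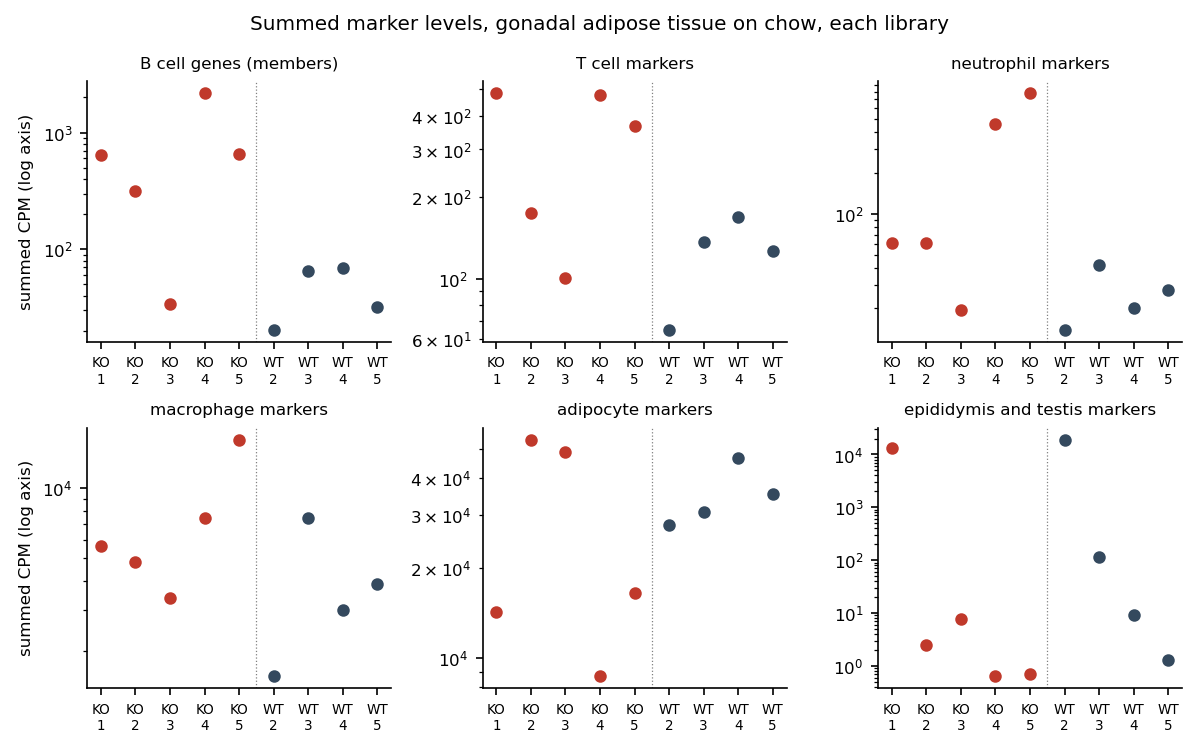
Summed CPM (log axis) of 6 marker lists in each chow KO library (left of the dotted line) and chow WT library (right of it) of gonadal fat. The members, T cell and neutrophil sums are lowest among KO libraries in KO 3, the adipocyte sum is low in KO 1, 4 and 5, and KO 1 and WT 2 alone are above 1000 CPM for epididymis and testis markers.

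On HFD the B cell genes of KO fat were not called against WT fat. The 9 log2 fold changes ran from -0.22 ± 0.55 (Cd79b) to 0.56 ± 0.60 (Ms4a1), none had an unadjusted p under 0.05, and edgeR and DESeq2 called none, where 0.0344% of all genes tested were called by edgeR. Cd79a ran from 2.43 to 22.5 CPM with a median of 5.81 in the 9 HFD KO libraries, and from 2.24 to 22.2 CPM with a median of 6.01 in the 8 HFD WT libraries. The groups overlapped over nearly their whole range. A single library led each group, KO 7 and WT 2, with a members' sum of 182 and 170 CPM against medians of 51.0 and 56.9 CPM.

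HET mice on HFD held the highest values seen on that diet. Cd79a ran from 1.63 to 36.8 CPM, with a median of 9.02, in the 11 HFD HET libraries. Libraries HET 3, 7, 8 and 9 were above every HFD WT library for Cd79a, with 30.4, 32.9, 28.2 and 36.8 CPM, and HET 11 and HET 5 were at the low end of all 28. HET 3 comes from the mouse labelled HET whose Pepd was at the KO level. Against HFD WT fat the 9 log2 fold changes were 0.74 to 1.49 and none was called by edgeR or DESeq2 (edgeR adjusted p 0.86 or more), with Bank1, Cd79a, Cr2 and Ms4a1 at an unadjusted p under 0.05. KO fat on HFD was not called against HET fat either (log2 fold changes -1.13 to -0.79, edgeR adjusted p 0.584 to 0.697, DESeq2 0 called), with Bank1, Blk and Cr2 at an unadjusted p under 0.05. In these 2 comparisons 0.00688% and 0.0138% of all genes tested were called.

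Diet was then compared within each genotype. In KO mice all 9 members fell on HFD relative to chow, by log2 fold changes of -4.37 ± 0.76 (Fcer2a) to -2.84 ± 0.53 (Cd22), with edgeR adjusted p of 2.29e-06 to 0.000201. In this comparison 20.6% of all genes tested fell. Cd79b, for instance, ran from 4.57 to 30.6 CPM with a median of 8.01 in HFD KO fat, against 5.71 to 479 CPM with a median of 126 in chow KO fat. The 4 high chow KO libraries were above every HFD KO library, and chow KO 3 was within their range. This comparison shares the chow KO libraries with those above.

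In HET mice the direction was the opposite one. Cd22 rose on HFD relative to chow by 2.18 ± 0.50 (edgeR adjusted p 0.000986), Ms4a1 by 1.66 ± 0.59 (edgeR adjusted p 0.0273) and Cd79a by 1.39 ± 0.55 (edgeR adjusted p 0.0467), so 3 of 9 rose where 15.6% of all genes tested rose. Cd22 ran from 6.82 to 79.1 CPM with a median of 32.2 in HFD HET fat, against 4.13 to 11.6 CPM with a median of 8.91 in chow HET fat. Of the other 6, Blk (1.24 ± 0.50) and Cd79b (1.34 ± 0.54) had adjusted p of 0.0511 and 0.0507. DESeq2 called 6 members, and leaving out single libraries gave 1 to 6, with 1 without chow HET 3, chow HET 8, HFD HET 8 or HFD HET 9 and 6 without HFD HET 11. Without the 15 libraries that held other tissue, Cd22 alone was called. Macrophage genes rose in 15 of 20 and T cell genes in 9 of 19 in the same comparison. Adipocyte genes fell in 6 of 10, a count given without the share of all genes that fell. The part of these other cells in the members' values was not tested.

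In WT mice none of the 9 was called between diets by edgeR or DESeq2 and none had an unadjusted p under 0.05 (log2 fold changes -0.11 to 1.13, the last being Cd22 with an edgeR adjusted p of 0.246), where 4.57% of all genes tested were called. Cd22 ran from 5.09 to 51.1 CPM in 8 HFD WT libraries, against 2.52 to 18.4 CPM in 4 chow WT libraries, so the groups overlapped.

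**Figure D3:**
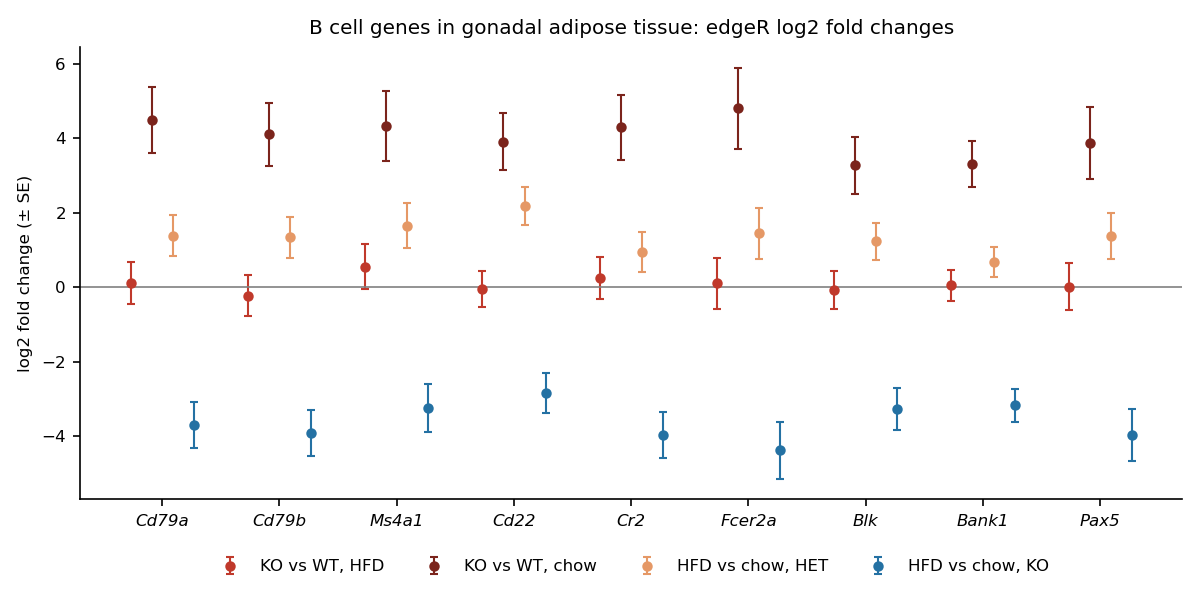
edgeR log2 fold change (± SE) of each B cell gene in gonadal fat for KO over WT on HFD and on chow, and for HFD over chow in HET and KO mice. KO over WT is near 0 on HFD and 3.28 to 4.81 on chow, and HFD over chow is negative for all 9 genes in KO mice and positive for all 9 in HET mice.

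Whether the KO effect differed between diets was tested as an interaction. All 9 members had a lower KO effect in mice on HFD than in mice on chow, by log2 differences of -4.70 ± 1.24 (Fcer2a) to -3.26 ± 0.72 (Bank1), with edgeR adjusted p of 0.00533 to 0.0297, where 4.66% of all genes tested were lower. The call depended on the libraries used. It held for 6 members in a fit of the 4 groups alone, for 4 without chow KO 4 and for 5 without chow WT 5. Without the 15 libraries that held other tissue, 0 members were called, the log2 differences were -4.33 to -2.96, the adjusted p 0.117 to 0.237, and all 9 had an unadjusted p under 0.05. The HET effect was not called as different between diets for any member by edgeR or DESeq2, at log2 differences of 0.60 to 1.4997 with no unadjusted p under 0.05, and 0% of all genes tested was called.

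Members were also compared with each other. Per kilobase of exon, median levels over the 45 fat libraries were highest for Cd79b (6.98 CPM per kb), Cd79a (4.27) and Cd22 (3.82) and lowest for Cr2 (0.163). Pax5, Ms4a1, Bank1, Fcer2a and Blk lay between, at 0.549, 0.692, 0.713, 0.980 and 2.07 CPM per kb. No member was at 0 in any fat library, and counts ran from 1 (Fcer2a) to 2287 (Cd79b).

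The proportion of Cd22 to Cd79a had higher medians on HFD. The median was 2.82, 2.60 and 3.16 Cd22 counts per Cd79a count in HFD KO, HET and WT fat, against 1.52, 1.42 and 1.83 in chow KO, HET and WT fat. The ratio was 1.28 to 1.84 in the 5 chow KO libraries, although their Cd79a levels differed widely, and 1.57 to 10.5 in the 9 HFD KO libraries. Ranges overlapped in every genotype, and no test was made. Bank1, Blk and Pax5 had a lower median ratio to Cd79a in chow KO fat (0.433, 0.495 and 0.654) than in chow WT fat (0.895, 1.09 and 1.16). The same direction held for Cd79b, Cd22, Ms4a1 and Cr2. Fcer2a alone had a higher ratio (0.708, against 0.476 in chow WT fat). Set against chow HET fat, the medians of Bank1, Blk, Ms4a1 and Cr2 were again lower in chow KO fat. Those of Pax5, Cd79b and Cd22 were not, at 0.608, 1.38 and 1.42 in HET and 0.654, 1.53 and 1.52 in KO.

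**Figure D4:**
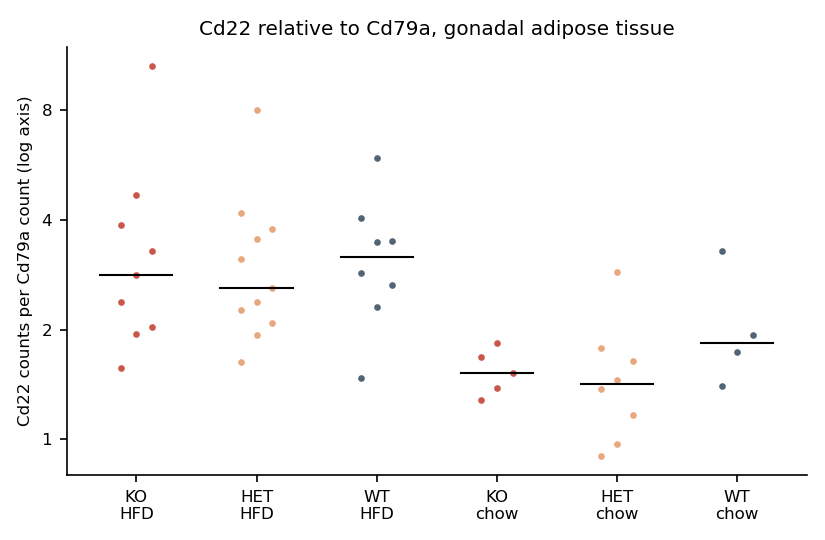
Cd22 counts per Cd79a count in each gonadal fat library (log axis), by genotype and diet; black lines are group medians. The HFD medians are 2.60 to 3.16 and the chow medians 1.42 to 1.83, with overlapping ranges.

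Mice within a group differed in the members together. Over the 45 fat libraries, after removal of group means, each member's log2 level correlated with the mean of the standardised members at r of 0.878 (Cr2) to 0.977 (Cd79a), which includes the member itself. Among the 12 other genes of most similar pattern were Fcmr, Siglecg, Spib, H2-Ob, Cxcr5, Ffar1, Ighd, Tnfrsf13c, Fcrl1 and Ccr6 (r = 0.937). Of the 12, 9 were also among the 12 found in the 28 HFD libraries alone. For comparison, Ighm had an r of 0.692, the T cell gene Cd3e 0.687, the neutrophil gene S100a9 0.498, the macrophage gene Adgre1 0.313 and the adipocyte gene Adipoq -0.617. All these points share libraries and their scaling, and the values are descriptions.

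In liver the members were close to the limit of detection. Medians over 75 libraries were 0.745 CPM for Cr2, 0.813 for Cd79a, 1.01 for Pax5, 1.08 for Ms4a1, 1.21 for Fcer2a, 1.92 for Cd79b, 2.68 for Cd22, 2.76 for Bank1 and 3.40 for Blk. Cr2 was under 3 counts in 37 libraries and Cd79a in 31. Every member was at 0 in Alios KO library 8, which held 42692 counts in all, and for Blk and Cd22 this was the only library at 0. Library scaling was done separately for chow with HFD and for Control with Alios.

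None of the members was called in any liver comparison of genotype or diet by edgeR or DESeq2. The expression filter kept Cd79b, Cd22, Blk and Bank1 on HFD and chow, and these with Ms4a1 and Cr2 on Alios and Control. Chow KO liver gave log2 fold changes over chow WT liver of 0.04 ± 0.75 (Cd79b) to 1.30 ± 0.55 (Bank1, edgeR adjusted p 0.163), where 3.4% of all genes tested were called, with Bank1 alone of the 4 tested members at an unadjusted p under 0.05. Bank1 stood at 2.20, 5.65, 7.28, 1.70 and 4.65 CPM in those chow KO livers, against 2.40, 1.95, 1.77, 0.338 and 1.51 CPM in the chow WT livers, so KO 2, 3 and 5 were above every WT library. These values rest on 1 to 16 counts. Library numbers in liver are not those of fat. Liver KO 2, 3 and 5 came from the mice of fat KO 5, 2 and 4, and liver KO 4 from the mouse of fat KO 3. Other members matched fat only in part. Liver KO 2 had 0 CPM of Cd79a, Cd79b, Pax5 and Cr2, and liver KO 5 had 0.775 CPM of Cd79b, Pax5 and Cr2. For Cd22, liver KO 3 and 5 had 10.5 and 6.20 CPM, against at most 5.07 CPM in chow WT livers. On HFD, KO over WT gave 0.22 ± 0.39 (Bank1) to 0.66 ± 0.49 (Cd79b, edgeR adjusted p 0.539), where 1.72% of all genes were called and none of the 4 tested members had an unadjusted p under 0.05. Without the filter Ms4a1 had one, and no member was called. On Alios, KO over WT gave -0.59 to 0.35 with 0.224% of all genes called, again with none of the 6 tested members at an unadjusted p under 0.05.

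The remaining liver comparisons gave the same counts of 0 called members. Chow KO over chow HET gave log2 fold changes of -0.66 to 0.29, where 13.5% of all genes were called, and HFD KO over HFD HET gave -0.02 to 0.70, where 2.39% were. Alios KO over Alios HET gave -0.01 to 0.76, where 0.285% were. HET over WT gave 0.40 to 1.02 on chow (0% of all genes called), -0.28 to 0.24 on HFD (0.00904%) and -1.02 to 0.35 on Alios (0.00862%). HFD over chow gave -0.57 to 0.72 in KO (10.7%), -0.63 to -0.09 in HET (14.2%) and 0.10 to 0.51 in WT (1.87%), and the difference of KO effects between those diets was -1.08 to 0.62 (0.145%). Alios over Control gave -0.50 to 0.92 in HET (0.19%) and -0.10 to 0.74 in WT (0%). Among the members that passed the filter, the unadjusted p in these comparisons was under 0.05 for Bank1 alone, in chow HET over chow WT (1.02 ± 0.48, edgeR adjusted p 1) and in HET mice on Alios over Control (0.92 ± 0.28, edgeR adjusted p 0.155). Bank1 stood at 3.84 to 4.77 CPM (4 to 26 counts) in the 5 Alios HET livers, against 1.76 to 2.77 CPM (3 to 13 counts) in the 4 Control HET livers. Without the filter, Ms4a1 and Cr2 also had an unadjusted p under 0.05 in HFD KO over HFD HET, and Cr2 in HET mice on HFD over chow, and no member was called.

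A single liver stood apart. HFD KO library 7 had 26.6 CPM of Ms4a1 where the other 8 HFD KO livers had 0.462 to 1.91 CPM, and it was the highest of all 75 livers for every member except Bank1, for which it had 8.38 CPM and chow HET library 6 had 8.83 CPM. It had 24.0 CPM of Cd22, 17.3 of Cd79b, 12.1 of Pax5, 10.7 of Blk, 9.54 of Cr2, 8.09 of Cd79a and 7.22 of Fcer2a. Its T cell markers summed to 138 CPM and its immunoglobulin constant genes to 965 CPM, against 23.1 to 69.0 CPM and 44.5 to 476 CPM in the other 8 HFD KO livers. Gonadal fat of the same mouse, HFD KO library 9, had 5.81 CPM of Cd79a, the median of its group.

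**Figure D5:**
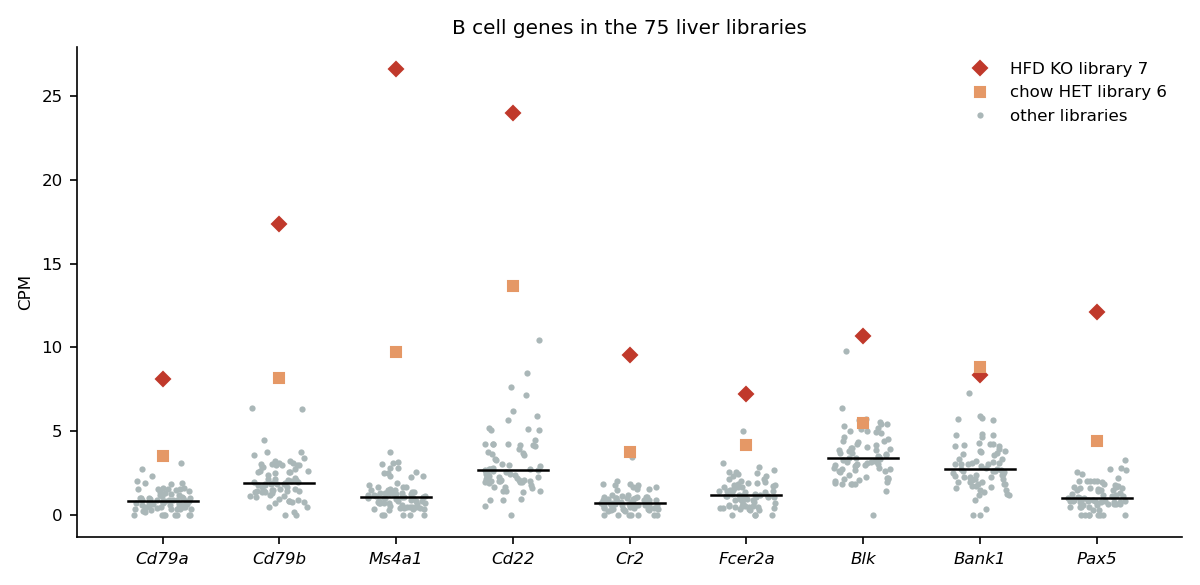
Level of each B cell gene (CPM) in the 75 liver libraries; black lines are medians over all of them, the diamond is HFD KO library 7 and the square chow HET library 6. The medians are 0.745 to 3.40 CPM, and the diamond is the highest point for every gene except Bank1.

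Fat and liver of the same mouse were set against each other in 44 mice for the 7 members with a median of at least 1 CPM in both tissues. None of the 7 had an adjusted p under 0.05 (permutation test, two-sided, adjusted over the 7). The highest was Bank1, with Pearson's r = 0.334 (permutation p = 0.0283, adjusted 0.198) and Spearman's rho = 0.353 (permutation p = 0.0196, adjusted 0.137), and r was 0.279 without the 2 mice farthest from the median in fat. The other 6 had r of -0.074 (Ms4a1) to 0.203 (Blk). These mice span 6 groups, whose means were removed first. The mouse of chow KO fat library 4, with 312.6 CPM of Cd79a in fat, had 2.32 CPM in liver, from 3 counts.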

How the data were processed

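The authors deposited 1 table of raw counts by Ensembl gene for each tissue. Per the submitters' processing notes, STAR 2.5.1b, featureCounts 1.5 and the build GRCm38.p5 were used. Libraries were stranded mRNA libraries from RNA of integrity number above 7, per the labels' protocols. The strand option and annotation release were not given in the sources used here. Symbols and positions came from the GRCm38 annotation GENCODE M21, which named 25723 of 25759 genes. Of 121 labelled samples 120 had a column. Chow WT 1 of gonadal fat was not analysed here, nor was 1 column that no label names.

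Counts were tested in edgeR 4.0.16 (R 4.3.3; quasi-likelihood, TMM scaling, at least 10 counts in enough libraries and 15 in all) in 3 fits, 1 for gonadal fat, 1 for liver on chow and HFD and 1 for liver on Control and Alios. These tested 14536, 11064 and 11595 genes. Each fit held all its groups, which share 1 estimate of spread, and contrasts were taken within it. Genes were called at an adjusted p under 0.05. Liver on Control had 1 KO library, and no test rests on it. SEs were computed from the log2 fold change and its F statistic. The labels give each mouse a number, so p-values measure the spread between mice. Groups were genotype and diet as labelled, and the numbers of replicates did not pair the libraries.

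The members, the lists and the tests were chosen with earlier results of these data known. Named genes were the 9 members, up to 3 called genes of smallest adjusted p in each list, the 12 genes of most similar pattern, Pepd, and genes a sentence singles out. A few of these genes are not reported here. Ebf1, Ighm, Jchain, Rag1, Rag2, Syk, Cxcl13, Ccl19, Ccl21a and the genes set beside the 12 were chosen after their values were seen. Alternatives were DESeq2 1.42.0 and its scaling, no filter, a filter by mean CPM, a stricter threshold, a fit of the compared groups alone, a replicate block and leaving out each library. Leaving out the libraries with other tissue was chosen after seeing the data. Counts of 14536 genes were simulated with gene means and library sizes taken over all 45 fat libraries, and randomly drawn genes were changed in chow KO. In chow KO over WT, 49% of 2-fold and 86% of 4-fold changes were called. In the difference of KO effects between diets, 35% and 79% were. Genes with the spread of the members were not simulated apart. Among 392 pairs of libraries of the same group, none was as alike as sampling noise allows (lowest mean chi-square 3.36 per gene). Correlations used log2(CPM + 0.5).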

Additional observations from a re-analysis of the deposited data

Results flagged for a closer look

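Within each group of 4 to 10 libraries, single libraries that stood far from the rest of their group were looked for in the 9 members (Dixon's test at the 95% level). Over 135 pairs of gene and group, 40 such values were found. The gaps were taken on CPM without logs. The chance rate of about 1 in 20 groups holds for normally distributed values, and CPM can be skewed, so the 40 cannot be set against it. The members are not independent, since a single library often stood apart for several of them.

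In fat, chow KO library 4 was the high one, with 312.6 CPM of Cd79a, 479 of Cd79b, 231 of Pax5, 146 of Blk and 235 of Fcer2a. On HFD, KO library 7 was high for Cd79b (30.6 CPM), Ms4a1 (21.2), Pax5 (18.1), Blk (13.9), Cr2 (4.82), Bank1 (12.4) and Fcer2a (14.6). HFD WT library 2 was high for Cd79a (22.2 CPM), Cd79b (37.5), Pax5 (15.5) and Fcer2a (8.77), and HFD WT library 8 for Cr2 (2.95). Chow HET library 4 had 7.75 CPM of Ms4a1.

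In liver, HFD KO library 7 stood apart for all 9 members: Cd79a (8.09 CPM), Cd79b (17.3), Ms4a1 (26.6), Cd22 (24.0), Pax5 (12.1), Blk (10.7), Cr2 (9.54), Bank1 (8.38) and Fcer2a (7.22). Chow HET library 6 did so for Cd79a (3.53 CPM), Ms4a1 (9.71), Cd22 (13.7), Cr2 (3.75) and Bank1 (8.83). The others were single values: chow KO library 3 for Fcer2a (5.003 CPM), chow WT library 4 for Pax5 (2.03), HFD WT library 6 for Cd22 (7.66) and library 7 for Cr2 (2.05), Alios KO library 2 for Ms4a1 (3.78) and Cr2 (3.47), and Alios WT library 3 for Bank1 (5.80). Alios KO library 8 was low for Bank1 at 0 CPM, in a library of 42692 counts.

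The effect of KO differed between HFD and chow in fat for every member by the interaction test, with log2 differences of -4.39 (Cd79a), -4.33 (Cd79b), -3.77 (Ms4a1), -3.97 (Cd22), -3.86 (Pax5), -3.36 (Blk), -4.05 (Cr2), -3.26 (Bank1) and -4.70 (Fcer2a), edgeR adjusted p 0.00533 to 0.0297. None was called without the 15 libraries that held other tissue.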

How the results depend on the processing

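Counts of called members were recomputed under each alternative, and 641 such values that answer a comparison kept their call or stayed within 1.5 times the count, 16 had fewer calls, 6 had more and 1 changed sign. The calls that moved were all in fat. In chow KO over chow WT, 9 members were called, with 0 in a fit of those groups alone, 0 with a replicate block and 8 to 9 without single libraries. In chow KO over chow HET the count was 9, with 0 under the replicate block. In KO on HFD over chow it was 9, with 2 under the block. In HET on HFD over chow it was 3, with 1 at an adjusted p under 0.01, 1 under the block, 2 without a filter, 2 with a covariate for runs of mouse numbers, 2 without the mouse labelled HET, 5 with RLE scaling, 6 in DESeq2, 6 in a fit of those groups alone, 1 without the other-tissue libraries and 1 to 6 without single libraries. The difference of KO effects was called for 9, with 4 at an adjusted p under 0.01, 0 under the block, 0 without the other-tissue libraries and 4 to 9 without single libraries. The cause was not tested. Replicate numbers did not pair the libraries: same-numbered chow KO and WT fat libraries deviated together at r of -0.34 to 0.234 in 4 pairs, HFD ones at -0.684 to 0.081 in 8. Without the mouse labelled HET, the fat and liver correlation of Cd79b was 0.009, against -0.011.

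Over all genes, 2180 were called in chow KO over WT, with 788 at an adjusted p under 0.01, 0 in a fit of those groups alone, 774 without KO 4 and 4210 without KO 3. The difference of KO effects was called for 920 genes, 302 without KO 4, 2650 without KO 3 and 8 without the other-tissue libraries. In liver, no alternative called a member, and median levels of 0.745 (Cr2) to 3.40 CPM (Blk) limit what could be seen there.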

Other observations

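HET fat on HFD, relative to chow, also differed in genes of the other lists drawn up for B cells, in a comparison in which 15.6% of all genes tested rose. Of the 20 tested genes of B cell receptor signalling 17 rose, led by the adaptor gene Blnk (log2 fold change 2.20 ± 0.33 by edgeR), and 15 of 24 further B cell genes rose. Ebf1, a factor gene of B cells and of fat precursor cells, fell by 0.66 on the log2 scale (edgeR adjusted p 0.0015). Of 6 tested germinal centre genes 3 rose, and whether these are particular to B cells was not examined. Macrophages express many of the receptor signalling genes too, and macrophage and T cell markers rose in the same comparison. The part of those cells in these calls was not tested.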
